A study of Mus musculus with 12 samples.

Results

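The mitochondrial ribosomal protein genes were followed as mouse embryonic stem cells (ESCs) became epiblast-like cells (EpiLCs). They were taken as the protein-coding genes whose symbol is Mrpl (large subunit) or Mrps (small subunit) followed by a number, which gave 78 of 51467 genes in the table, 49 for the large and 29 for the small subunit. The subunit was read from the symbol alone in all counts and figures. ESCs were grown in Knockout DMEM with 15% fetal bovine serum, LIF and the inhibitors called 2i, which hold the naive state. EpiLCs came from the same cells, plated for 24 h and collected about 56 h after LIF and 2i were withdrawn. All cultures received 500 µM of 4-thiouridine (4sU), a uridine analogue, for 30 min, and 4sU RNA captured on streptavidin (nascent RNA) and rRNA-depleted total RNA were each sequenced in 3 libraries per cell type, 12 libraries in all. Each labelled extract was divided to give both kinds of RNA. The study speaks of biological replicates, but the labels do not say whether these were separate cultures, so p-values measure the spread between these libraries, which may be in part technical. In bulk RNA, fewer cells of a type and less RNA per cell cannot be told apart.

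The mitochondrial ribosome translates the messages of the mitochondrial genome, which encode core subunits of the respiratory chain. Its proteins are encoded in the nucleus, made on cytosolic ribosomes and imported, while its ribosomal RNAs are transcribed inside the organelle. The small subunit reads the message and the large subunit forms the peptide bond, and several proteins of both have no bacterial counterpart.

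The 4sU libraries held 3097693 to 5385644 counted reads each and the total libraries 9300845 to 21975684. A kept member had a median of 637 reads in total libraries and 125.5 in 4sU libraries (lowest 33 and 6), and counting error is therefore larger for nascent RNA. Naive genes fell past the rule of the study (a log2 change beyond 1 in size, with adjusted p under 0.05) in 9 of 10 cases and EpiLC genes rose past it in 5 of 6, while of 4 genes of general pluripotency 1 fell and 1 rose past it. Of 7 fibroblast markers, 3 passed the filter on low counts. Col1a2 and Dcn, which rose past the rule, reached that filter through EpiLC libraries alone, so their rise is not read as a result. Over all 7 markers the summed level was 3.47 to 4.28 CPM (reads of a gene scaled to one common library size) in ESC total libraries. In EpiLC total libraries it was 13.98 to 18.2 CPM. At 0 reads were 2 to 4 of the 7 in ESC and 1 to 2 in EpiLC total libraries. Of 5 endoderm markers 3 passed, and 1 rose and 1 fell. The part of such cells in the results was not tested. Both ESC replicate 3 libraries stood apart on the third principal component (41.5 and 36.2, against -28.3 to 9.75 in the other 10), and results are given with and without them.

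Of the 78 genes, 75 reached 3 CPM in at least 3 libraries (47 large, 28 small). Mrpl53 had 0 reads in all 12 libraries. By counting error alone this allows up to 0.137 CPM in the deepest and 0.968 CPM in the shallowest library. Its exons overlap those of Gm42688 on the same strand, and whether reads in shared exons were counted was not tested. The limit may therefore not hold for its expression. Mrpl23 had 16, 16 and 4 reads in ESC total libraries and 5, 6 and 3 in EpiLC total libraries. Mrps36, whose product has also been assigned to the alpha-ketoglutarate dehydrogenase complex, had 28, 33 and 27 reads in ESC total libraries and 13, 15 and 7 in EpiLC total libraries. Unique alignment drops reads shared with pseudogenes, and 5 genes with such symbols were not protein-coding, so these low counts are uncertain.

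Promoters are shown for 9 genes on which the results below turn, 6 that hold a marked string in the full promoter and 3 that hold none: Mrpl35 and Mrps24 had the largest falls in total and nascent RNA, Mrpl17 and Mrpl43 fell in both, Mrpl3 rose in nascent RNA, Mrps18a is 1 of 3 paralogs, Mrpl34 rose in total RNA, Mrpl24 fell in stability and Mrps33 fell in nascent RNA. The sequences are RefSeq promoters (GRCm38.p6), printed from 120 bases before the annotated start to 30 bases after it. For Mrps24 and Mrpl34 that start was not found in a GENCODE transcript. The window of Mrpl34 ends at 71464955, before the counted gene begins at 71464959. Capitals mark strings bound by factors of nuclear genes for mitochondria: GCGCATGCG (NRF1), CCGGAAGT (ETS family, which includes GABP) and AAGATGGCG (YY1), on either strand.
Mrpl35, chr6:71823755-71823904 (minus strand): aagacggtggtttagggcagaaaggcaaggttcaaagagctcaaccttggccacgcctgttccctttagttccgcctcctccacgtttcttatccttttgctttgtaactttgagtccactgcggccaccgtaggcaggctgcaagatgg
Mrps24, chr11:5707672-5707821 (minus strand): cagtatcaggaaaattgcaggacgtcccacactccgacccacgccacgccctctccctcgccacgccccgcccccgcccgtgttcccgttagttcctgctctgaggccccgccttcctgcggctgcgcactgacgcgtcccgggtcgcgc
Mrpl17, chr7:105811058-105811207 (minus strand): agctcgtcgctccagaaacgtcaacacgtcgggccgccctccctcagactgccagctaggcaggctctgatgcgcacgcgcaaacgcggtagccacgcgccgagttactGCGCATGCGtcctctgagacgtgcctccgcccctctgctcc
Mrpl43, chr19:45006413-45006562 (minus strand): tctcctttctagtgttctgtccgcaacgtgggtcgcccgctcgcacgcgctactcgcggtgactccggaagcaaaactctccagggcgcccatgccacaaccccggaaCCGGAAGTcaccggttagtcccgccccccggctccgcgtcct
Mrpl3, chr9:105053148-105053297 (plus strand): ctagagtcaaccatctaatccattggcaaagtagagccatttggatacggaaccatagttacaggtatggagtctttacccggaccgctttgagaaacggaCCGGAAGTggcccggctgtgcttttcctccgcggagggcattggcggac
Mrps18a, chr17:46110884-46111033 (plus strand): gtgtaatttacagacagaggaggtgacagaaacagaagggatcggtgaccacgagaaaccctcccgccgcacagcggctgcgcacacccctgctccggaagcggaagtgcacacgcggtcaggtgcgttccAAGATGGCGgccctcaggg
Mrpl34, chr8:71464806-71464955 (plus strand): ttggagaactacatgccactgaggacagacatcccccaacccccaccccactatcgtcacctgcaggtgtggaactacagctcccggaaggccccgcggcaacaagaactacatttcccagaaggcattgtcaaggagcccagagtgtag
Mrpl24, chr3:87919424-87919573 (plus strand): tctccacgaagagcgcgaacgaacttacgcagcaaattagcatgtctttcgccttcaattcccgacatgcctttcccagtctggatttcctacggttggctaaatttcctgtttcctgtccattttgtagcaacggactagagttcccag
Mrps33, chr6:39810907-39811056 (minus strand): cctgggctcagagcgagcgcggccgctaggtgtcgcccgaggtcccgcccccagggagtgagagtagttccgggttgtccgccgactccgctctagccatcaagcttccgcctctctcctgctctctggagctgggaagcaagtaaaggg

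The NRF1 string began 11 bases before the start of Mrpl17, and the ETS string 12 bases before that of Mrpl43 and 19 before that of Mrpl3. No marked string was found in the full promoters of Mrpl34, Mrpl24 and Mrps33, nor in those of Mrpl14 and Mrps12, which are not printed. Mrpl35 and Mrps24 held a YY1 string in the full promoter of 300 bases but not wholly inside the printed window. RefSeq promoters were found for 69 of the 78 genes (75 promoters, 63 with a start that lies in a GENCODE transcript). NRF1 strings were in 9.33% of these promoters, against 3.67% of promoters of kept protein-coding genes and 1.75% of all 32851. ETS strings were in 16%, against 7.96% and 3.89%, and YY1 strings in 10.7%, against 2.98% and 1.4%. At least 1 of the 3 was in 34.7% of member promoters, 13.8% of kept protein-coding promoters and 6.69% of all. A shorter NRF1 string, CATGCGC, which overlaps the NRF1 string, was in 10.7%, 7.08% and 3.91%, and the ETS core CGGAAG, part of the ETS string, in 53.3%, 30.3% and 16.9%. The GC box GGGCGG was in 52%, 64.1% and 35.7%, CCAAT in 40%, 38.2% and 37.4%, the TATA box TATAAA in 6.67%, 6.84% and 13.6%, and the E-box CACGTG in 9.33%, 10% and 7.15%. The variant AAATGGCG was in 1.33%, 1.38% and 0.755%, and TCTCGCGA in 1.33%, 2.16% and 0.995%. A matched string is a description of letters, and binding was not measured.

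In total RNA the genes were lower in EpiLCs. Their summed level on the TMM scale of edgeR, which corrects library size for composition, was 5257, 5307 and 4625 CPM in ESC replicates 1 to 3 and 3868, 4046 and 4039 CPM in EpiLCs, a mean of 5063 ± 380 against 3984 ± 100.8 (SD, n = 3). Every ESC library lay above every EpiLC library. As a share of all reads they held 0.427% to 0.48% in ESCs and 0.373% to 0.391% in EpiLCs. Of the 75 genes, 47 fell (62.7%; all genes 32.1%) and 1 rose (all genes 31.4%) at an adjusted p under 0.05 (limma-voom, Benjamini-Hochberg over 14731 genes). Past the fold of the study's rule, 1 fell (all genes 11.2%) and 0 rose (all genes 16.3%; 0 also by edgeR and DESeq2, and 1 rise at an unadjusted p under 0.05). The median log2 change was -0.37, against 0.02 over all genes, and 61 of 75 values lay below 0. ESC and EpiLC libraries did not overlap for 48 genes that were lower (all genes 35.1%) and 4 that were higher (all genes 33.5%). Of the large subunit genes 29 of 47 fell (median -0.36), and 18 of 28 small subunit genes (median -0.40).

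**Figure D1:**
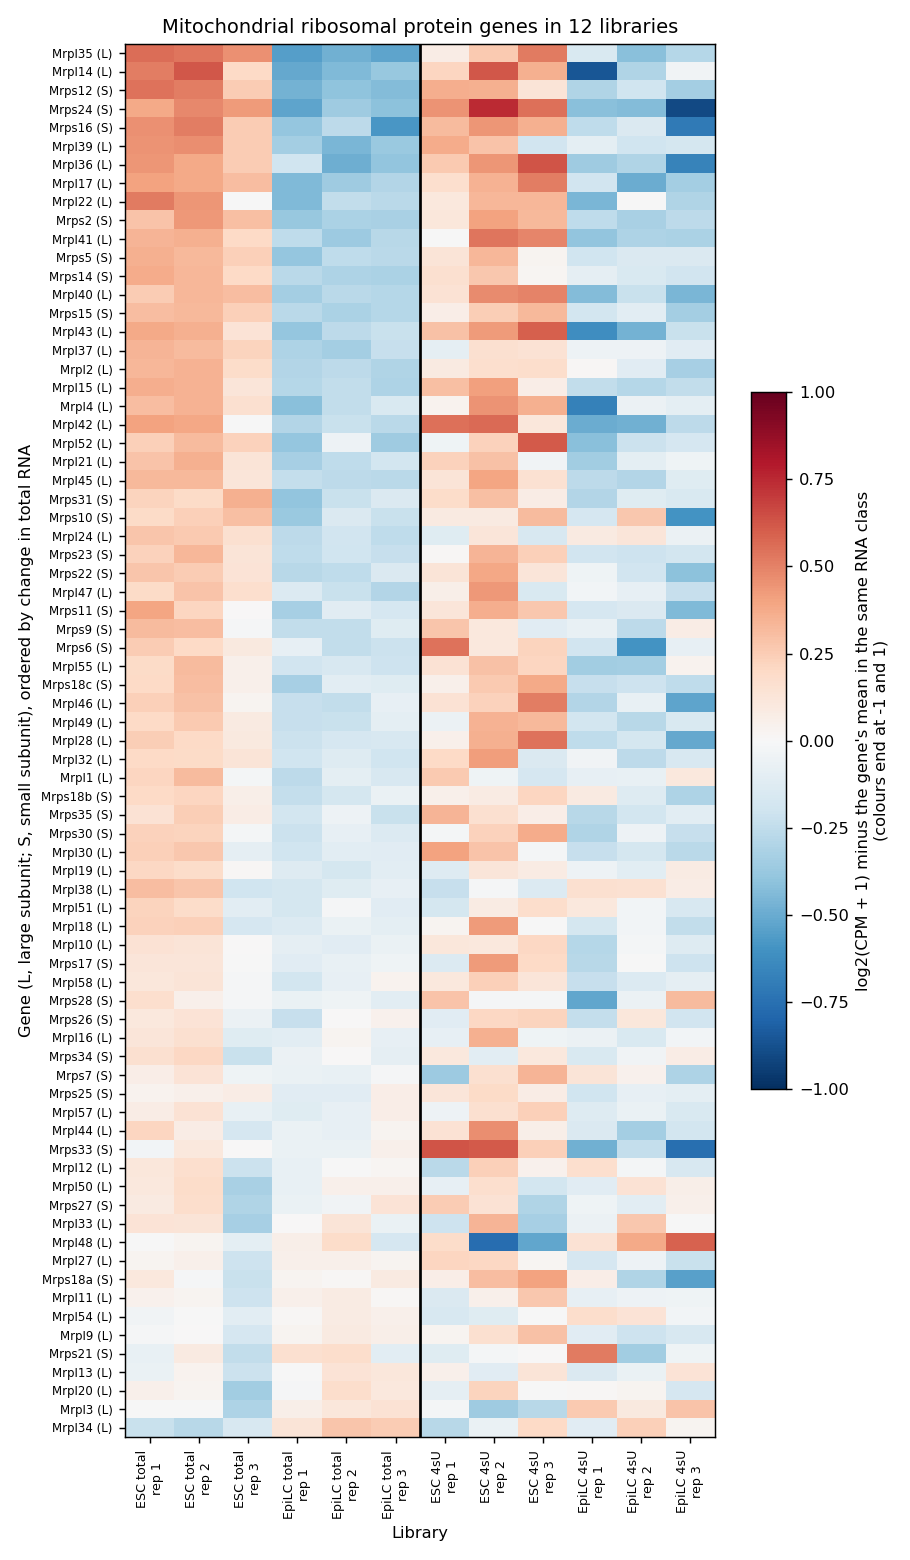
Level of each of the 75 genes (rows, ordered by their change in total RNA) in each of the 12 libraries (columns), as log2(CPM + 1) minus the gene's mean over the 6 libraries of the same RNA class; red is higher and blue lower, and colours end at -1 and 1. From Mrpl35 at the top to Mrpl34 at the bottom, 61 genes had a total RNA change below 0, and ESC total replicate 3 is paler than replicates 1 and 2.

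The members are short transcripts (median 1288 bases, against 2996 in kept protein-coding genes), and across protein-coding genes the total RNA change rose with transcript length (Spearman's rho 0.196 over 12304 genes, a description across genes that share libraries). Among the 4103 protein-coding genes in the shortest of 3 equal length classes (up to 2273 bases), the median total change was -0.18, and among the 53 members in it -0.39. With the trend on length removed, 38 members were lower (all genes 33.8%) and 6 higher (all genes 29.9%) in total RNA, with a median of -0.25. Without both ESC replicate 3 libraries, 53 were lower (all genes 36.7%) and the median was -0.44.

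Mrpl35, a large subunit protein with a bacterial homologue (chr6:71812997-71823810 in mm10, 4 exonic blocks), was the 1 gene past the fold of the rule. It was at 98.2, 96.5 and 91.4 CPM in ESC total libraries and 44.9, 47.1 and 45.7 in EpiLC total libraries. The groups lay far apart, with a log2 change of -1.06 ± 0.09 (SE; adjusted p = 1.9e-07). In nascent RNA it was at 53.6, 61.4 and 73.2 CPM in ESCs and 45.7, 37.9 and 41.5 in EpiLCs (-0.57, adjusted p = 0.00125). Its total RNA thus changed more than its nascent RNA, but the difference of -0.49 had an adjusted p of 0.0815.

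Mrpl14, whose bacterial homologue sits at the face between the subunits (chr17:45686322-45698495), was at 24.3, 26.4 and 19.5 CPM in ESC total libraries and 11.5, 12.1 and 12.7 in EpiLC total libraries. No libraries overlapped (-0.96 ± 0.14, adjusted p = 2.62e-05). Mrps12, a homologue of a protein of the bacterial decoding centre (chr7:28739641-28741820), was at 64.4, 63.1 and 52.7 CPM in ESCs and 31.5, 33.1 and 32.2 in EpiLCs (-0.90 ± 0.09, adjusted p = 6.88e-07). Mrps24, another small subunit protein (chr11:5703983-5707687), was at 94.7, 101.2 and 97.8 CPM in ESCs and 50.0, 56.5 and 54.2 in EpiLCs (-0.87 ± 0.09, adjusted p = 8.43e-07). In both, all 3 ESC libraries were higher than all 3 EpiLC libraries.

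Mrps16, a small subunit protein with a bacterial homologue, fell from a mean of 67.6 ± 6.31 to 38.0 ± 4.26 CPM (log2 change -0.84). Mrpl39, a large subunit protein without one, fell from 109.3 ± 8.87 to 63.3 ± 2.64 CPM (-0.79). Mrpl36 fell from 63.2 ± 4.34 to 38.1 ± 4.01 CPM (-0.74). Mrpl17, a large subunit protein near the exit of the nascent peptide in bacteria, had 134.7, 132.8 and 126.1 CPM in ESCs and 74.6, 79.1 and 83.0 in EpiLCs, a log2 change of -0.73 (adjusted p = 8.89e-06). The SDs are over 3 libraries, and the groups of these genes did not overlap.

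Mrpl34 went the other way. This large subunit gene (chr8:71464959-71465747) was at 57.7, 55.6 and 60.3 CPM in ESC total libraries and 73.8, 82.0 and 80.5 in EpiLC total libraries. All EpiLC libraries were higher (0.45 ± 0.08, adjusted p = 0.000267). Its nascent RNA overlapped between cell types, at 10.8, 12.7 and 15.5 CPM in ESCs and 12.2, 15.9 and 13.7 in EpiLCs (0.14 ± 0.18, adjusted p = 0.552), and the difference between both changes was 0.31 ± 0.20 (adjusted p = 0.376).

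**Figure D2:**
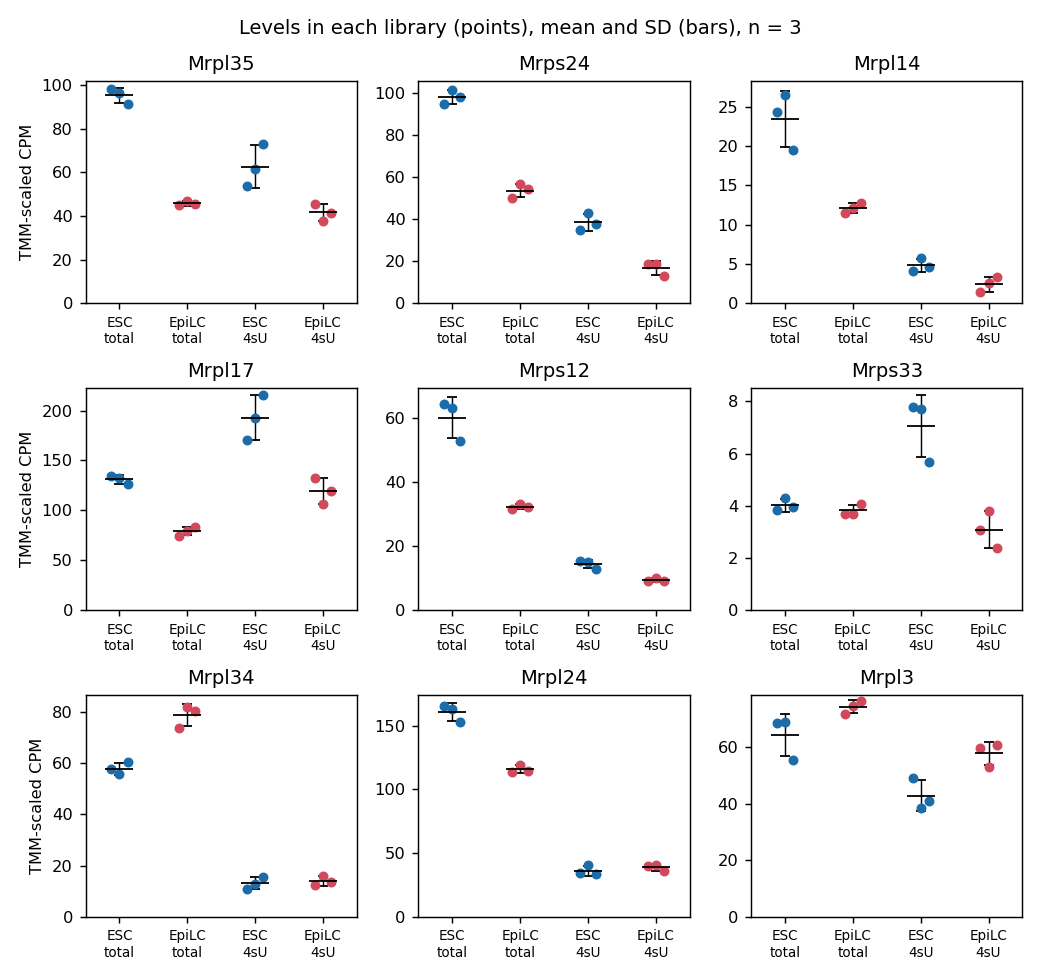
TMM-scaled CPM (vertical axes, from 0) of 9 genes in each library (points; ESC blue, EpiLC red), with the mean and SD of 3 libraries as bars, for total and 4sU RNA. Mrpl35 at 91.4 to 98.2 CPM in ESC total RNA and 44.9 to 47.1 in EpiLC total RNA do not meet, Mrpl34 is higher in EpiLC total RNA, and Mrps33 separates only in its 4sU libraries.

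Nascent RNA asked what share of the RNA captured after the pulse these genes held. Total and 4sU levels are scaled to each library and the spike-in entries had no reads, so changes shared by all genes were not measured. The 75 genes summed to 2942, 3352 and 3139 CPM in ESC 4sU libraries and 2502, 2500 and 2459 in EpiLC 4sU libraries, again without overlap. In these libraries 37 genes fell (49.3%; all genes 28.8%) and 2 rose (all genes 23.7%), with 3 falls past the fold of the rule (all genes 13.5%) and 0 rises (all genes 11.9%; 0 also by edgeR and DESeq2, and 2 rises at an unadjusted p under 0.05). Libraries did not overlap for 45 genes that were lower (all genes 34.1%) and 2 that were higher (all genes 26.6%). The median change was -0.33, against -0.09 over all genes. By subunit, 17 of 28 small subunit and 20 of 47 large subunit genes fell. Both falls, in total and in nascent RNA, were called for 32 genes (42.7%; all genes 22.1%).

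The nascent count depended on single libraries. It was 15 without ESC 4sU replicate 2, 15 without EpiLC 4sU replicate 1, 15 without EpiLC 4sU replicate 3, 24 without ESC 4sU replicate 3 and 23 without ESC total replicate 1. It was also 15 of 75 with the trend on transcript length removed, a smaller share than the 25.9% of all genes. Without both ESC replicate 3 libraries it was 44 (58.7%), beside 33.5% of all genes. In the shortest length class, named above, the median nascent change was -0.21 over protein-coding genes and -0.39 over the 53 members. Past the fold of the rule 6 genes fell without ESC 4sU replicate 1 and 0 without EpiLC 4sU replicate 3. For the fits with 1 library left out no share of all genes is given, so their counts are not read as a trait of the members.

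Mrps24 had the largest nascent fall. Its 4sU libraries were at 34.8, 42.9 and 37.4 CPM in ESCs and 18.6, 18.4 and 13.1 in EpiLCs, with no overlap (-1.19 ± 0.16, adjusted p = 2.01e-05). Mrps33, a small subunit protein without a bacterial homologue, was at 7.77, 7.69 and 5.69 CPM in ESC 4sU libraries and 3.06, 3.82 and 2.37 in EpiLC 4sU libraries (-1.17 ± 0.26, adjusted p = 0.00177). Its total RNA was at 3.82, 4.28 and 3.93 CPM in ESCs and 3.68, 3.70 and 4.08 in EpiLCs, which overlapped (adjusted p = 0.741). The total and EpiLC 4sU levels of Mrps33 lie near the 3 CPM of the filter, where counting error is larger. The difference between both changes was 1.10 ± 0.31 and missed the threshold (adjusted p = 0.0606), and without both ESC replicate 3 libraries it was 1.22 with an adjusted p of 0.0128.

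Mrpl14 rested on few nascent reads, 20, 32 and 17 in ESC and 6, 12 and 11 in EpiLC libraries (4.09, 5.73 and 4.61 CPM against 1.41, 2.54 and 3.26). Its change of -1.06 ± 0.39 (adjusted p = 0.0337) lost the call without any 1 of the 3 EpiLC 4sU libraries (adjusted p 0.232, 0.0688 and 0.0566 for replicates 1 to 3), without ESC 4sU replicate 2 or 3 (0.142 and 0.0781) and without ESC total replicate 1 (0.0584). The call was also lost with the length trend removed (-0.72, adjusted p = 0.125) and with no filter on low counts (adjusted p = 0.0734). Mrpl43 fell from a mean of 45.4 ± 5.03 to 24.3 ± 3.56 CPM in 4sU libraries (-0.91), Mrpl42 from 32.2 ± 5.56 to 17.6 ± 1.72 (-0.89) and Mrpl36 from 26.3 ± 3.47 to 13.8 ± 1.97 (-0.89). Mrps16 fell by 0.77 and Mrpl40 fell by 0.74 on the log2 scale. For Mrps16 the call was lost without EpiLC 4sU replicate 3 (adjusted p = 0.0841) and with the length trend removed (-0.44, adjusted p = 0.107).

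Mrpl3, a large subunit protein whose bacterial homologue reaches toward the peptidyl transferase centre (chr9:105053239-105079888), rose in nascent RNA. It was at 49.1, 38.7 and 40.9 CPM in ESC 4sU libraries and 59.9, 53.2 and 60.8 in EpiLC 4sU libraries, all higher (0.43 ± 0.13, adjusted p = 0.0108; 0.0514 without ESC 4sU replicate 2). In total RNA it was at 68.8, 68.9 and 55.7 CPM in ESCs and 72.0, 74.7 and 76.6 in EpiLCs, where the groups did not overlap but the change of 0.21 had an adjusted p of 0.0788. Mrpl48, another large subunit gene, had the other nascent rise, and neither was called without ESC 4sU replicate 2. Its values of 14.3, 6.98 and 8.41 CPM in ESCs and 13.9, 16.5 and 19.3 in EpiLCs overlapped (0.79 ± 0.24, adjusted p = 0.0147).

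**Figure D3:**
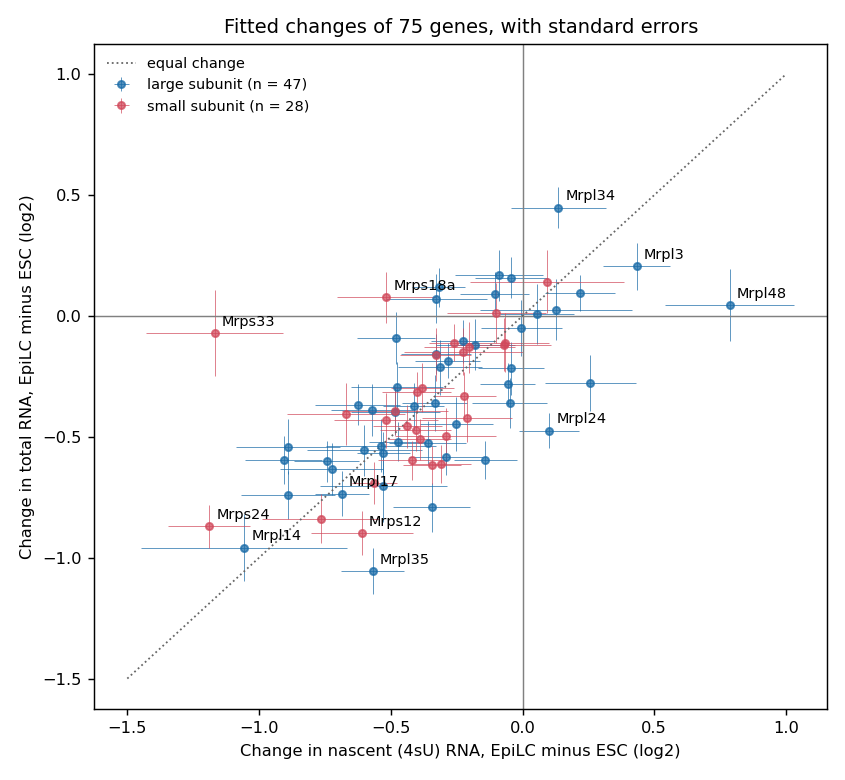
Fitted log2 change (EpiLC minus ESC) in total RNA against that in nascent RNA for 47 large subunit (blue) and 28 small subunit (red) genes, with standard errors as bars and a dotted line for equal change. Most points lie in the lower left, Mrps33 at -1.17 in nascent and -0.07 in total RNA lies far from the line, and Mrpl34 at 0.45 in total RNA lies highest.

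Relative mRNA stability, the log2 ratio of total to 4sU RNA, was tested for a difference between cell types by the interaction of cell type and assay. Of 75 genes 1 fell (all genes 1.88%) and 0 rose (all genes 2.72%), and 0 passed the fold of the rule in either direction (all genes 0.305% lower and 1.24% higher). At an unadjusted p under 0.05, 7 were lower (all genes 7.84%) and 3 higher (all genes 15.1%). With each pair of libraries of 1 number and cell type as a block, since extracts were divided, 3 were lower (Mrpl24, Mrpl38 and Mrpl39, adjusted p = 0.0168, 0.0443 and 0.0485; all genes 4.44%) and 0 higher (all genes 7.31%). With edgeR 1 was lower and 0 higher, with DESeq2 3 were lower and 0 higher, and both tools called 0 past the fold. The median change was 0.04, against 0.11 over all genes, so the sign of the median turns when it is taken relative to all genes (-0.07).

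The gene that fell was Mrpl24, whose bacterial homologue lies near the peptide exit tunnel (chr3:87919506-87923672). Its total RNA was at 165.8, 163.4 and 152.7 CPM in ESCs and 113.7, 119.3 and 114.2 in EpiLCs (-0.47 ± 0.07, adjusted p = 5.33e-05). Its nascent RNA was at 34.4, 40.8 and 33.4 CPM in ESCs and 39.8, 40.7 and 35.9 in EpiLCs, which overlapped (0.10 ± 0.11, adjusted p = 0.48). The log2 ratio of total to 4sU RNA was 2.27, 2.00 and 2.19 in ESC replicates and 1.51, 1.55 and 1.66 in EpiLC replicates, a change of -0.57 ± 0.14 (adjusted p = 0.0307).

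This call was close to the threshold. It was lost without ESC 4sU replicate 1 (adjusted p = 0.0595), ESC total replicate 2 (0.0653), EpiLC 4sU replicate 1 (0.0604) or 2 (0.0982), or EpiLC total replicate 1, 2 or 3 (0.0679, 0.0606 and 0.0717), and with no filter on low counts (0.0695), while the change stayed between -0.51 and -0.74 over all alternatives. Without both ESC replicate 3 libraries 5 genes were lower in stability (Mrpl38, Mrpl35, Mrpl24, Mrpl37 and Mrpl39, at -0.66 to -0.35; all genes 6.69%) and 2 higher (Mrpl9 at 0.34 and Mrps33; all genes 13.7%).

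Within each cell type the members had more total than nascent RNA, compared with other genes. In ESCs 59 of 75 were higher in total than in 4sU libraries (78.7%; all genes 40.2%), and in EpiLCs 58 (77.3%; all genes 41.2%). Because each library is scaled to its own composition, only the position among other genes is read. The median ratio was 0.89 in ESCs and 0.79 in EpiLCs on the log2 scale, against 0.03 and 0.15 over all genes and 0.30 and 0.37 over protein-coding genes. With both RNA classes joined by replicate number (extracts were divided, but the labels do not say that a number marks 1 extract), the members' median lay 0.68 to 1.00 above that of all genes in ESCs and 0.66 to 0.76 above in EpiLCs (0.85 ± 0.16 and 0.71 ± 0.05, SD, n = 3). Among the upper 25% of all genes stood 31 of 75 in each cell type.

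Among the shortest protein-coding genes, named above, the median ratio was 0.68 in ESCs and 0.73 in EpiLCs, and among the 53 members in that class 0.93 and 1.00. Across the members the ESC ratio fell with the length of the untranslated part of the transcript (Spearman's rho -0.437) and with the number of uridines (-0.456), and rose with GC content (0.47). Over protein-coding genes the same rho values were -0.274, -0.232 and 0.163. These are descriptions over 75 and 12304 genes that share libraries, and the capture of longer transcripts with more uridines was not tested apart from decay.

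Mrpl14 had the highest ratio in ESCs (2.27, above 96.7% of all genes), followed by Mrpl2 (2.25), a protein of the peptidyl transferase region in bacteria, Mrpl34 (2.17), Mrpl24 (2.14) and Mrpl28 (2.07). Their SEs of 0.09 to 0.24 exceed the gaps between most neighbours in this order, so it does not rank them. Mrps2, a small subunit protein with a bacterial homologue, had the lowest. Its CPM was 71.1, 78.7 and 71.8 in ESC total libraries and 172.8, 211.3 and 200.6 in ESC 4sU libraries (-1.39 ± 0.08), and the EpiLC ratio was -1.52. Mrpl32, a large subunit protein that is cleaved by a mitochondrial protease before assembly, stood at -1.04, Mrps33 at -0.83 and Mrpl51, whose exons overlap the microRNA gene Mir3098 on the same strand, at -0.43 in ESCs. Mrpl17 was lower in total than in 4sU libraries too, at 134.7, 132.8 and 126.1 against 170.1, 193.1 and 215.8 CPM.

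**Figure D4:**
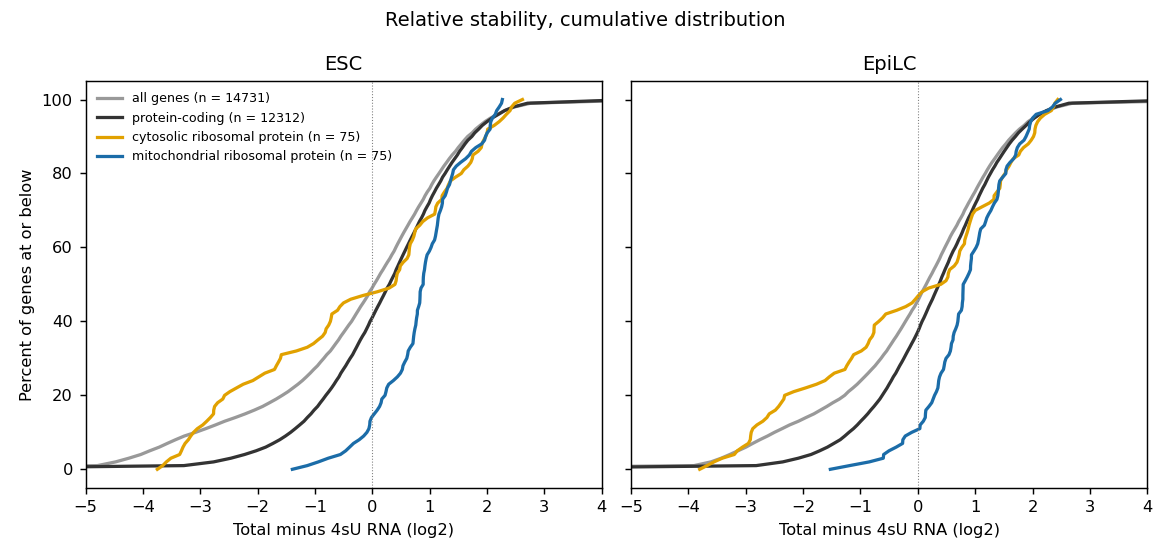
Percent of genes (vertical axis) at or below each log2 ratio of total to 4sU RNA (horizontal axis, shown from -5 to 4) in ESCs and EpiLCs, for all genes, protein-coding genes and both kinds of ribosomal protein genes. The curve of the mitochondrial ribosomal protein genes lies to the right of all genes over most of its range, with medians of 0.89 and 0.79.

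Levels per kilobase of exonic length spanned 44.2-fold in total RNA, from 2.55 to 112.5 CPM per kb with a median of 36.6. Mrpl34 (112.5 CPM per kb over the 6 total libraries), Mrpl42 (104.3), Mrps16 (93.3), Mrpl28 (92.1) and Mrpl12 (91.4), which also binds the mitochondrial RNA polymerase, were highest. Mrps33 (2.55), Mrpl48 (3.53), Mrps26 (8.10), Mrps25 (9.12) and Mrps17 (10.98) were lowest. The exonic length, which pools all annotated isoforms, was 4278 to 6073 bases for Mrps26, Mrpl48, Mrps17 and Mrps25 and 566 to 1316 bases for the 5 highest, so annotation enters these levels. Mrpl12 overlapped between cell types, at 129.6, 134.5 and 103 CPM in ESC and 113.8, 119.4 and 121.3 in EpiLC total libraries (-0.05 ± 0.12, adjusted p = 0.726).

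The 3 paralogs of Mrps18 are each thought to take their own place in the ribosome, and Mrps18a is found in the large subunit despite its symbol. By that symbol it was counted here as small. Mrps18a was at 43.7, 40.1 and 34.5 CPM in ESC total libraries and 41.2, 40.8 and 43.1 in EpiLC total libraries (0.08 ± 0.11, adjusted p = 0.541). Its nascent RNA was at 20.04, 23.8 and 25.5 CPM in ESCs and 20.03, 15.3 and 12.8 in EpiLCs, so that both groups all but met (-0.52 ± 0.19, adjusted p = 0.0311). That call was lost without ESC 4sU replicate 2 or 3 (adjusted p = 0.135 and 0.141), ESC total replicate 1 (0.0538) or EpiLC 4sU replicate 2 or 3 (0.107 and 0.23), and with DESeq2 size factors (0.0532), TMM within each assay (0.0563), no filter (0.104) or the length trend removed (-0.24, 0.28). Mrps18b fell in total RNA from 36.5 ± 2.27 to 29.2 ± 1.803 CPM (-0.33, adjusted p = 0.00858) and Mrps18c from 28.2 ± 2.63 to 21.6 ± 1.97 CPM (-0.39, adjusted p = 0.00357), while their nascent changes of -0.22 and -0.48 missed the threshold. That of Mrps18c passed it in 6 of 24 alternatives, among them edgeR (adjusted p = 0.017) and limma-trend (0.0071), with a range of adjusted p from 0.0071 to 0.438. Exons of Mrps18c overlap those of Gm43511, so its counts are uncertain. The stability change of Mrps18a was 0.59 (adjusted p = 0.119). Whether the paralogs differ from each other was not tested. With the length trend removed Mrps18a rose in total RNA (adjusted p = 0.0177) and the falls of Mrps18b and Mrps18c were not called.

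Many of these genes start beside another gene. Of the 75 kept members, 31 (41.3%) had the start of another protein-coding gene on the opposite strand within 1000 bases, against 14.7% of 12312 kept protein-coding genes. In 1 pair both genes are members: Mrpl46 and Mrps11 start 30 bases apart and fell together, by -0.39 and -0.43 in total RNA and -0.57 and -0.52 in nascent RNA. Of 26 kept neighbours that are not members, 9 fell (all genes 32.1%) and 5 rose (all genes 31.4%) in total RNA. Their median was -0.06, while the members beside them had a median of -0.34. In nascent RNA 8 of these neighbours fell (all genes 28.8%) and 3 rose (all genes 23.7%), with a median of -0.07.

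Single pairs went opposite ways. Mrpl14 and Tmem63b, which encodes a membrane channel, start 63 bases apart, and total RNA changed by -0.96 in Mrpl14 and 1.09 in Tmem63b (adjusted p = 2.43e-08), with nascent changes of -1.06 and 0.79. Mrpl40 and Hira, a histone chaperone gene, start 270 bases apart and changed by -0.60 and 0.47. Other pairs moved the same way in total RNA. Mrps12 and Sars2, the mitochondrial seryl-tRNA synthetase, changed by -0.90 and -0.44, and Mrpl36 and Ndufs6, a subunit of respiratory complex I, by -0.74 and -0.39. In nascent RNA Mrps12 changed by -0.61 and Sars2 by 0.29 (limma-voom, adjusted p of Sars2 = 0.124). Mrpl36 and Ndufs6 changed by -0.89 and -0.43 in nascent RNA. Reads were counted by strand, so overlapping ends of such pairs are kept apart.

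**Figure D5:**
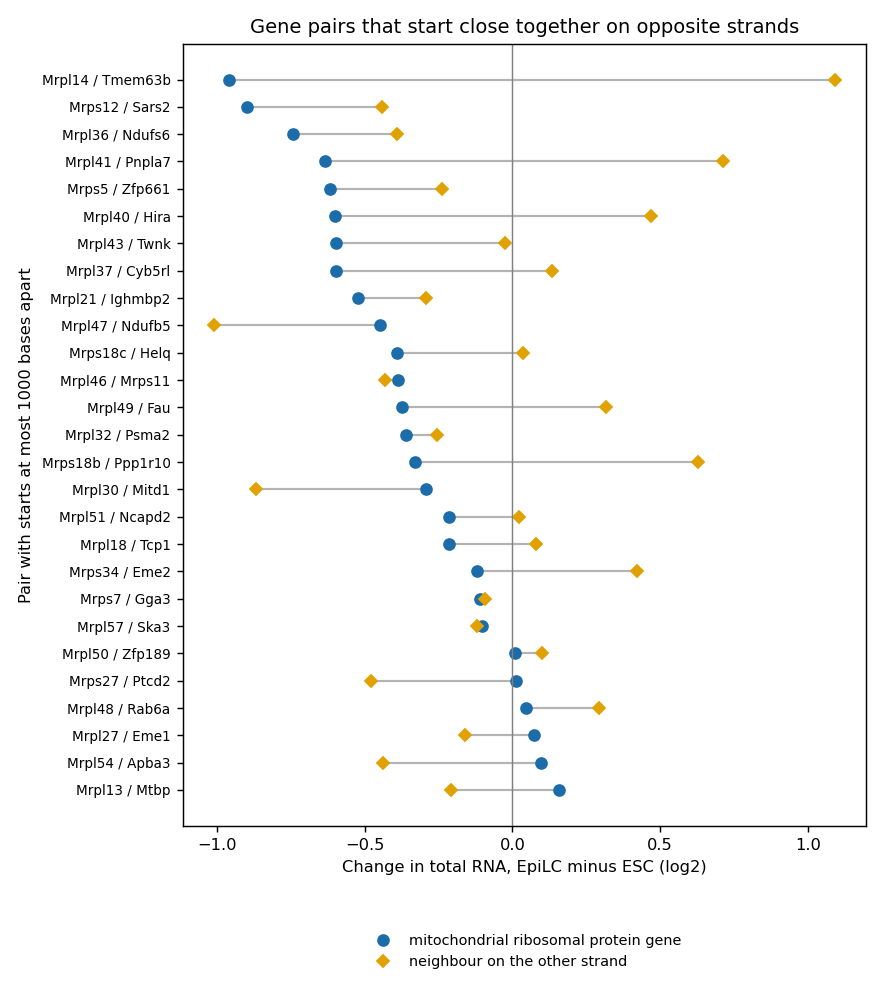
Log2 change in total RNA (horizontal axis, EpiLC minus ESC) of a mitochondrial ribosomal protein gene (blue circle) and its protein-coding neighbour on the other strand (yellow diamond) for 27 pairs, ordered by the member's change. Mrpl14 at -0.96 and Tmem63b at 1.09 lie farthest apart, and Mrpl46 and Mrps11 are both members.

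Other nuclear genes of the same pathway are given by their counts, beside 32.1% of all genes that fell and 31.4% that rose in total RNA. Of 5 mitochondrial ribosomal proteins with other symbols 3 fell and 0 rose in total RNA (median -0.40), among them Dap3, which binds GTP in the small subunit (200.3 to 119.5 CPM, -0.74), Gadd45gip1 (-0.48) and Aurkaip1 (-0.40). Of 25 factors of ribosome assembly and rRNA modification 11 fell (44%) and 3 rose (median -0.24), led by the rRNA methyltransferases Mrm2 (23.5 to 10.3 CPM, -1.17) and Nsun4 (-0.88) and by Rpusd3 (-0.86). Of 15 translation factors 9 fell (60%) and 1 rose (median -0.41), led by the initiation factor Mtif3 (25.8 to 12.6 CPM, -1.03), the membrane insertase Oxa1l (-0.73) and the release factor Mtrf1 (-0.72).

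Of 17 mitochondrial aminoacyl-tRNA synthetases 9 fell (52.9%) and 3 rose (median -0.30), with Fars2 (-0.89), Pars2 (-0.83) and Aars2 (-0.80) the largest. Of 9 regulators of mitochondrial transcription 8 were kept, and 3 fell (37.5%) and 0 rose: Gabpa, the DNA-binding subunit of GABP (324.9 to 189.9 CPM, -0.78), the mitochondrial RNA polymerase Polrmt (-0.57) and Esrra (-0.35). Nrf1, the other factor of this list with a marked string, was at 81.4 and 94.5 CPM in total RNA (0.21, adjusted p = 0.054) and rose in nascent RNA (0.34, adjusted p = 0.0183). It was named after its values were seen.

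Cytosolic ribosomal protein genes and the genes of the mitochondrial genome were set beside the members. Of 75 kept cytosolic ribosomal protein genes, 12 fell (16%, all genes 32.1%) and 7 rose (9.33%, all genes 31.4%) in total RNA (median -0.05). In nascent RNA 11 fell (14.7%, all genes 28.8%) and 1 rose (1.33%, all genes 23.7%). Of 17 kept genes of the mitochondrial genome, 2 fell (11.8%) and 1 rose (5.88%) in total RNA (median 0.16). In nascent RNA 12 of these fell (70.6%, all genes 28.8%) and 0 rose (all genes 23.7%), with a median of -0.72. They held 0.392% to 0.525% of reads in total libraries and 5.48% to 8.95% in 4sU libraries, and their ratio of total to 4sU RNA in ESCs had a median of -5.39. The median exonic length of these 17 genes was 71 bases, and 7 of them had a principal protein-coding transcript, so most are not messages. The methods name rRNA depletion for total RNA only, and the part of this difference in preparation in the ratio was not tested. The differences between these lists were not tested.

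Of 26 members with an NRF1, ETS or YY1 string 16 fell in total RNA (61.5%, median -0.38). Of 40 kept members with a promoter and none of these strings 26 fell (65%, median -0.39), beside 32.1% of all genes. In nascent RNA 12 of the 26 fell (46.2%) and 22 of the 40 (55%; all genes 28.8%). The nascent rise of Mrpl3 and the falls of Mrpl17 and Mrpl43 were in genes that hold a string. The nascent falls of Mrps33 and Mrpl14 were in genes that hold none. Members with an opposite start had a median total change of -0.31 and those without one -0.42. None of these contrasts was tested.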

How the data were processed

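The deposited table holds raw counts per gene for 12 libraries. Per the labels and methods, the authors trimmed adapters with cutadapt 1.14, aligned 50 bp single-end reads to mm10 with STAR 2.5.3a keeping unique positions, and counted by strand with featureCounts 1.5.3 on GENCODE M14 without rRNA. Symbols came from GENCODE M21 (51274 of 51467 IDs). The 92 spike-in entries had no reads and were left out. Promoters and their strings came from RefSeq (GRCm38.p6). Members and lists were chosen with earlier results of these data known.

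The 14731 genes that reached 3 CPM in 3 or more libraries were fitted by limma-voom on TMM-scaled counts (limma 3.58.1, edgeR 4.0.16, R 4.3.3), with 1 mean per group and contrasts for total RNA, nascent RNA and their difference. Printed adjusted p-values are from that fit unless another setting is named. The text names members past the rule, up to 8 largest rises and falls with adjusted p under 0.05 and no overlap, the 5 highest and lowest levels, the 5 highest and lowest ESC ratios, the Mrps18 paralogs and genes not kept. Naming Mrpl38, Mrpl37, Mrpl9 and the neighbours followed their values. The pipeline was tested on simulated data. Alternatives were other scalings, no filter, edgeR, DESeq2 1.42.0, limma-trend, sample weights, replicate blocks, a length trend and each library left out. Limits from a count of 0 cover counting error only.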

Additional observations from a re-analysis of the deposited data

Results flagged for a closer look

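The change of Mrpl24 from ESCs to EpiLCs differed between total and nascent RNA by the interaction test of limma-voom. Its log2 change was -0.47 in total RNA and 0.10 in nascent RNA, a stability change of -0.57 (SE 0.14, adjusted p = 0.0307), with all 3 EpiLC replicates below all 3 ESC replicates. It was the 1 member of 75 called lower in stability (1.33%; all genes 1.88%), and the call was lost in 8 of 24 alternatives. The groups of 3 libraries were too small for a test of single outlying samples.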

How the results depend on the processing

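Leaving out 1 library at a time gave 42 to 51 members lower in total RNA and 1 to 2 past the study's rule. Nascent RNA gave 15 to 45 lower, 0 to 2 higher and 0 to 6 past the rule. Stability gave 0 to 5 lower, 0 to 2 higher and 0 to 1 past the rule, with a median of -0.12 (without ESC 4sU replicate 2) to 0.11. The stability count was 5 without ESC total replicate 3, 2 without ESC 4sU replicate 3, and 0 without ESC total replicate 2, EpiLC 4sU replicate 1 or 2 or any EpiLC total replicate. The EpiLC ratio of total to 4sU RNA stood 0.62 to 0.72 above all genes. With 2 libraries left in a group, the spread is pooled over all groups. No share of all genes is given for these fits, and the cause of the shifts was not tested.

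Library totals alone gave 6 members higher and 0 past the rule in total RNA, and 2 higher with 1 past the rule in stability. DESeq2 size factors, the DESeq2 test and the length correction each gave 3 lower in stability. Sample weights gave 2 past the rule in total RNA, and 6 lower, 3 higher and 1 past the rule in stability. Removing the length trend moved the median to -0.25 in total RNA (-0.23 from all genes, 6 higher, 2 past the rule) and -0.20 in nascent RNA (15 lower, 6 higher, 0 past the rule), and the ratios to 0.69 in ESCs and 0.58 in EpiLCs above all genes. Without the filter, which brings low genes into the comparison, medians relative to all genes were -0.61 in total RNA (2 past the rule), -0.38 in nascent RNA (15 lower), 1.87 for the ESC ratio and 1.54 for the EpiLC ratio, with 0 lower in stability. Without both ESC replicate 3 libraries, 2 members passed the rule in total RNA, and 5 were lower, 2 higher and 1 past the rule in stability.

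Extracts were divided for total and 4sU RNA, but the labels do not say that a shared replicate number marks 1 extract. Deviations of 4sU and total libraries with the same number correlated at 0.163, 0.296 and 0.408 in ESCs and at 0.0747, 0.0295 and 0.0234 in EpiLCs. With the replicate number as a block, 45 members were lower in total RNA and 43 in nascent RNA, and 1 was lower in stability. With the culture as a block these were 46, 39 and 3. The 47 falls in total RNA kept 45 of the same genes with the block by number. Over 28 results for single genes and 24 alternatives, 634 values kept their side of the threshold, 30 lost it, 8 gained it and 0 turned direction with a call.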
